A study of Mus musculus with 3 samples.

Results

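Malat1, Neat1, Miat, Gas5, Snhg1, Snhg3, Snhg8 and Snhg12 are 8 long noncoding RNA genes of the mouse, of which 3 make RNAs known for staying in the nucleus and 5 carry small nucleolar RNAs (snoRNAs) in their introns. They were found by symbol among the 22976 genes of the count table, which lists each of them once. The tested libraries were 2 clones of NSC-34 cells, called clone 1 and clone 2, whose genotype is given as wild type with spontaneous resistance to PR20 and whose treatment is given as 10 µM PR20 for 3 weeks. They were set against 1 library of untreated wild-type NSC-34 cells, called the control. NSC-34 is a hybrid line from the fusion of mouse neuroblastoma with embryonic spinal cord cells enriched in motor neurons, and PR20 is a synthetic chain of proline-arginine units, one of the dipeptide repeats made from the C9ORF72 expansion in amyotrophic lateral sclerosis. Whether the clones came from separate treated cultures is not given. The control is 1 library, so p-values reflect only how far the 2 clones vary from each other, which may be technical variation. PR20 exposure, resistance and origin from a clone go together in these libraries and cannot be told apart.

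Many long noncoding RNAs are transcribed and spliced like messenger RNAs, but they are not known to be read into a stable protein. For Malat1 and Neat1 the annotated exons together cover the whole span of the gene. The same holds for the snoRNA hosts Snhg1, Snhg8 and Snhg12. Malat1 gathers in nuclear speckles, the stores of splicing factors, while the long form of Neat1 is the scaffold on which paraspeckles are built, nuclear bodies that become larger or more numerous under many kinds of stress. The snoRNA hosts differ: their introns are trimmed into snoRNAs, which guide chemical modification of ribosomal RNA, whereas the spliced exons of several of them reach the cytoplasm and are broken down by nonsense-mediated decay. In the nervous system Malat1 is among the most abundant nuclear RNAs, Miat (also called Gomafu) marks subsets of neurons, and Neat1 has been described as raised in motor neurons in amyotrophic lateral sclerosis.

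The starts of the host genes are shown first because genes of this class, like those of ribosomal proteins, often begin within a run of pyrimidines and carry a TATA sequence just ahead of it. Each line gives 30 bases before and 30 from the annotated start, 5′ to 3′ on the transcribed strand, from RefSeq on GRCm38.p6. Capitals mark TATA and runs of at least 6 C or T. Gas5 has 2 annotated starts.
Gas5, chr1:161034571-161034630 (+): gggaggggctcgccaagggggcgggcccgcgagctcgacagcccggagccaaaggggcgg
Gas5, chr1:161035136-161035195 (+): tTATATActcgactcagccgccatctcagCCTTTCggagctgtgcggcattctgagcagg
Snhg1, chr19:8723457-8723516 (+): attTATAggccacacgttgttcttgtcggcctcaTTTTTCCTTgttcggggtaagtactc
Snhg3, chr4:132353657-132353716 (-): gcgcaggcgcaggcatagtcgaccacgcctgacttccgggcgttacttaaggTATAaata
Snhg8, chr3:123508307-123508366 (-): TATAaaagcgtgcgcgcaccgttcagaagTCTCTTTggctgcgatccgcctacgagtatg
Snhg12, chr4:132308648-132308707 (+): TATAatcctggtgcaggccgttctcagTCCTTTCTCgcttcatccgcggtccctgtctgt

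TATA, which reads the same on both strands, stood in 5 of these 6 host windows, and it stood in 8.72% of the 32851 windows of the same length in the RefSeq table. It lay within the 30 bases before the annotated start in 4 of the 6, against 5.62% of all windows, while in Snhg3 it lay after the annotated start. A pyrimidine run, searched on the transcribed strand alone, stood in 4 of the 6 host windows, against 49.6% of all windows. The longest runs had 9 bases, in Snhg1 and Snhg12. Neither motif was found in the window of Malat1, and the window of Miat held a run of 7 bases without TATA. The table matched 7 of the 8 genes, all except Neat1. These are matches of letters in a window and not mapped sites.

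The ends of the nuclear RNAs matter for a library made from polyadenylated RNA. The short form of Neat1 ends at a polyadenylation signal, while the long form and the processed form of Malat1 are known to end at a tract of A bases encoded in the genome and folded into a triple helix. These lines are 80 bases each from Gencode M21 on GRCm38, with AATAAA and runs of at least 4 A in capitals.
Neat1-202, chr19:5842307-5842386 (-): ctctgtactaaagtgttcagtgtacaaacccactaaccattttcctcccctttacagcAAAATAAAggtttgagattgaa
Neat1-201, chr19:5824708-5824787 (-): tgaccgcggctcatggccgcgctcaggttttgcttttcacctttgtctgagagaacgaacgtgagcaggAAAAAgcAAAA
Malat1-201, chr19:5795982-5796061 (-): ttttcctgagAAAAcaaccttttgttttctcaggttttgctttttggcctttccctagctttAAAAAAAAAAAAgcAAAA

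The tract of Malat1 lay 292 bases before the annotated end of that transcript, and that of Neat1-201 lay at its annotated end. The file holds 1 count per gene, so reads of the short and the long form of Neat1 cannot be told apart.

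The snoRNAs inside the hosts fall into a pair of classes, shown by 1 example each. Box C/D snoRNAs guide ribose methylation and carry a C box and a D box, here TGATG and CTGA in capitals, with CTGA marked at each match. Box H/ACA snoRNAs guide pseudouridine formation and carry ACA before their last bases, in capitals here.
Snord78, in Gas5, chr1:161036984-161037049 (+): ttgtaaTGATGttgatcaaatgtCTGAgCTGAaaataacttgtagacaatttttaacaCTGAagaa
Snora24, in Snhg8, chr3:123507937-123508066 (-): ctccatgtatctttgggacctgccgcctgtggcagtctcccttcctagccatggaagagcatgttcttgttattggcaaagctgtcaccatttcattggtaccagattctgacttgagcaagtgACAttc

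Gencode M21 places snoRNAs at 9 separate positions in Gas5, 8 in Snhg1, 4 in Snhg12, 2 in Snhg3 and 1 in Snhg8. Only 1 of them, Snora73b in Snhg3, was listed in the count table. It had 21 counts in clone 1 and 15 counts in clone 2, against 10 counts in the control. In Gencode M21, 20 of 25 Gas5 transcripts and 14 of 18 Snhg1 transcripts are of a retained intron type. All 130 bases of Snora24 lie in annotated exons of Snhg8 and all 66 bases of Snord78 in those of Gas5. Snora73b shares no exonic base with Snhg3. The levels below are counts assigned to the host genes and can include reads from retained introns. The output of snoRNAs was not measured by them.

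Clone 1 held 11389663 gene counts and clone 2 held 11307034, against 11700755 in the control. Levels are CPM, the counts relative to library size after scaling by TMM factors, on which 3 counts stood for 0.267 CPM in clone 1 and 0.270 CPM in clone 2, against 0.250 CPM in the control. The control has no replicate. Of 8 motor neuron markers 4 could be tested and all 4 were called lower in the clones, as were 25.8% of all tested genes. The list had a summed level of 23.0 CPM in clone 1 and 23.3 CPM in clone 2, against 346 CPM in the control. Most of that sum came from the neurofilament gene Nefh, at 17.2 and 18.4 CPM in the clones, against 323 CPM in the control. Chat, the acetylcholine-synthesising enzyme, had 0 counts in both clones, against 7 counts in the control. Mnx1 had 1 count in clone 1 and 3 counts in clone 2, against 1 count in the control. Others of the list were present in the control: Slc18a3, the vesicular acetylcholine transporter, had 3 counts in clone 1 and 1 count in clone 2, against 113 counts in the control, and the neurofilament gene Nefh had 193 and 205 counts, against 3879 in the control. The 7 sympathetic neuroblastoma markers were also all called lower, with sums of 597 and 523 CPM in the clones, against 1021 CPM in the control. Fibroblast markers summed to 97.7 and 129 CPM in the clones, against 102 CPM in the control, with 2 of 7 tested called higher and 2 lower. The 3 tested glial markers and the 1 tested immune marker were not called, and the glial list summed to 6.50 and 7.01 CPM in the clones, against 8.57 CPM in the control. The part of these differences in the values below was not tested, and in whole cultures fewer cells of a type and less RNA per cell cannot be told apart.

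**Figure D1:**
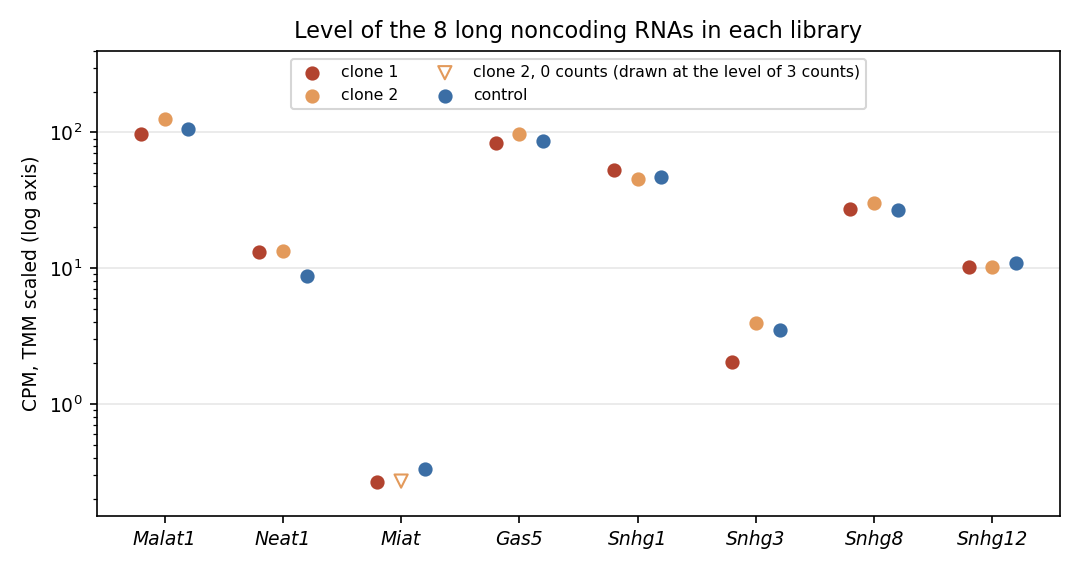
Level of each long noncoding RNA in CPM (log axis) in clone 1, clone 2 and the control, 1 point per library. Neat1 had both clones above the control, at 13.1 and 13.3 CPM in the clones against 8.82 CPM in the control, and Miat lies near the level of 3 counts.

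Of the 8 genes, 7 passed the filter on low counts, and Neat1 alone passed the edgeR quasi-likelihood test at an adjusted p of 0.05, being higher in the clones. The other 6 tested genes were not called in either direction. Over the whole table, 50.1% of the 13705 tested genes were called, 24.3% higher and 25.8% lower, so 1 call among 7 genes was a smaller share than the background. Among tested genes within the same range of mean level, 3.17 to 110 CPM, 51.5% were called. The share was 14.3% for the 7 genes, against 26.5% for the 683 tested genes of a long noncoding type in Gencode M21, not matched for level. The median size of the log2 fold change, without its sign, was 0.09 over the 7 genes, against 0.30 over those 8791 genes of like level.

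Among the nuclear RNAs, Neat1 (ENSMUSG00000092274.2; GRCm38 chromosome 19, 5824708 to 5845478, minus strand) had 147 counts in clone 1 and 148 in clone 2, against 106 in the control. These are 13.1 and 13.3 CPM in the clones and 8.82 CPM in the control. Both clones lay above the control and within counting error of each other, with a ratio of clone 2 to clone 1 of 1.02 (95% counting interval 0.803 to 1.29). The log2 fold change was 0.58 ± 0.17 (SE; edgeR adjusted p = 0.0113), with an interval of 1.16-fold to 1.93-fold higher. The call depended on the test: with DESeq2 the log2 fold change was again 0.58 and the adjusted p was 0.294, and over all alternatives the adjusted p ran from 0.00549 to 0.518.

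Malat1 (ENSMUSG00000092341.2; chromosome 19, 5795690 to 5802672, minus strand) was the most counted of the 8 genes. It had 1092 counts in clone 1 and 1403 in clone 2, against 1276 in the control, or 97.3 and 126 CPM in the clones and 106 CPM in the control. The clones lay on opposite sides of the control, clone 1 at 0.916 times its level (counting interval 0.845 to 0.994) and clone 2 at 1.19 times (1.10 to 1.28). Together they differed from it by 0.07 ± 0.10 on the log2 scale (SE; edgeR adjusted p = 0.587), with an interval of -0.15 to 0.29.

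Miat (ENSMUSG00000097767.8; chromosome 5, 112213228 to 112229395, minus strand) was close to undetected. It had 3 counts in clone 1 and 0 in clone 2, against 4 in the control, so 0 counts in clone 2 allow a level of up to 0.270 CPM. It did not pass the filter and so has no value in the main test. Without the filter its log2 fold change was -1.23 (edgeR adjusted p = 0.582), and no difference was detectable at this depth. On the opposite strand the annotation places Gm26953, which shares 24.3% of the exonic bases of Miat and had 6 and 2 counts in the clones, against 6 in the control. The sources used here do not state which strand was counted.

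Among the snoRNA hosts, Gas5 (ENSMUSG00000053332.13; chromosome 1, 161034422 to 161038539, plus strand) makes an RNA that accumulates when growth stops and is a known substrate of nonsense-mediated decay. It had 939 counts in clone 1 and 1080 in clone 2, against 1031 in the control, or 83.6 and 97.1 CPM in the clones and 85.8 CPM in the control. Clone 1 lay just below the control and clone 2 above it. The log2 fold change was 0.07 ± 0.08 (SE; edgeR adjusted p = 0.475), with an interval of -0.10 to 0.25.

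Snhg1 (ENSMUSG00000108414.1; chromosome 19, 8723475 to 8726443, plus strand), the host of a run of box C/D snoRNAs, had 589 counts in clone 1 and 502 in clone 2, against 567 in the control. At 52.5 and 45.1 CPM in the clones and 47.2 CPM in the control, clone 1 was the higher clone here, the reverse of Malat1 and Gas5. The log2 fold change was 0.05 ± 0.10 (SE; edgeR adjusted p = 0.701), with an interval of -0.16 to 0.25.

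Snhg8 (ENSMUSG00000104960.1; chromosome 3, 123507552 to 123508404, minus strand), the host of Snora24, had 305 counts in clone 1 and 337 in clone 2, against 324 in the control. These are 27.2 and 30.3 CPM in the clones and 27.0 CPM in the control, and clone 1 and the control nearly coincide. The log2 fold change was 0.09 ± 0.11 (SE; edgeR adjusted p = 0.529), with an interval of -0.15 to 0.33.

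Snhg12 (ENSMUSG00000086290.8; chromosome 4, 132308623 to 132311024, plus strand), which hosts Snora16a, Snora44, Snora61 and Snord99, had 115 counts in clone 1 and 114 in clone 2, against 132 in the control. The clones were alike at 10.2 CPM each and both lay below the control at 11.0 CPM. The log2 fold change was -0.10 ± 0.17 (SE; edgeR adjusted p = 0.661), with an interval of -0.47 to 0.27.

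Snhg3 (ENSMUSG00000085241.7; chromosome 4, 132348014 to 132353686, minus strand), the host of Snora73a and Snora73b, had the fewest counts of the tested genes. It had 23 counts in clone 1 and 44 in clone 2, against 42 in the control, or 2.05 and 3.96 CPM in the clones and 3.50 CPM in the control. Clone 1 stood apart from clone 2 and the control, and the log2 fold change, -0.22 ± 0.36 (SE; edgeR adjusted p = 0.638), had the widest interval of the 7, -0.99 to 0.54. Without clone 1 the value was 0.18, and without clone 2 it was -0.77. Its annotation also overlaps others: 13.7% of its exonic bases are shared with Rcc1 on the same strand and 71.5% with Gm17300 on the opposite strand. Rcc1, the exchange factor of the GTPase Ran, had 471 and 438 counts in the clones, against 455 in the control.

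Because genes of different length collect different numbers of reads, levels between genes were compared per kilobase of annotated exon. The order in the control, from high to low, was Snhg8 at 31.6 CPM per kb, Gas5 at 22.8, Snhg1 at 15.9, Malat1 at 15.2, Snhg12 at 4.57, Snhg3 at 3.54, Neat1 at 0.425 and Miat at 0.036. In clone 1 the order was the same, and in clone 2 Malat1 at 18.1 CPM per kb stood above Snhg1 at 15.2. The length used matters. Per kilobase of the longest transcript without a retained intron, Gas5 led with 126 CPM per kb in clone 1 and 146 in clone 2, against 129 in the control. On that length Snhg1 came next with 74.0 and 63.6 CPM per kb in the clones, against 66.5 in the control, followed by Snhg8 with 51.5 and 57.4, against 51.1 in the control. Malat1, whose length is the same on both scales, stood below all 3 in every library. Divided by the 3004 bases of the short form alone, Neat1 would have 4.36 and 4.43 CPM per kb in the clones, against 2.94 in the control.

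**Figure D2:**
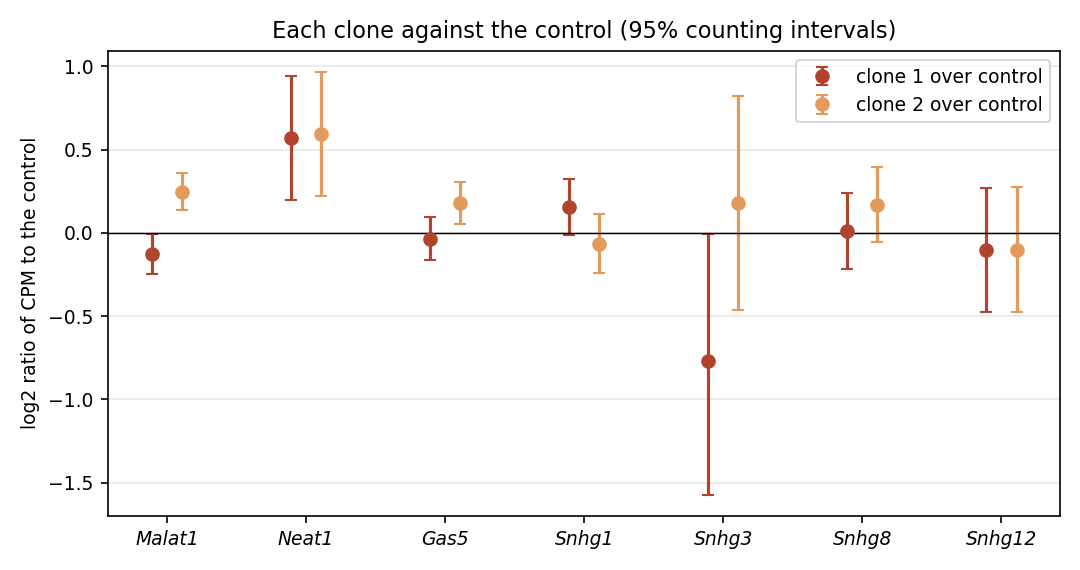
Log2 ratio of CPM of clone 1 and of clone 2 to the control for the 7 tested genes, with 95% intervals that cover counting error only. Both clones lie above the control for Neat1 and Snhg8 and below it for Snhg12, and of these only Neat1 has intervals that leave out the control's level. For Malat1, Gas5, Snhg1 and Snhg3 the clones lie on opposite sides of the control.

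The clones also differed from each other. The counting interval of the ratio of clone 2 to clone 1 left out 1 for 4 of the 7 tested genes, against 11.5% of all tested genes. The ratio was 1.30 for Malat1 (1.20 to 1.40), 1.16 for Gas5 (1.06 to 1.27) and 1.93 for Snhg3 (1.14 to 3.35), all higher in clone 2, and 0.860 for Snhg1 (0.762 to 0.971), lower in clone 2. Deeply counted genes have narrow intervals, but Snhg3 had only 23 and 44 counts in the clones. The 11.5% was not matched for level, and with 1 library per clone this is no test of the clones. Such an interval was found for 15 of 29 tested protein-coding snoRNA hosts and for 0 of 10 tested other noncoding hosts. For Snhg8 the ratio was 1.12 (0.952 to 1.31) and for Snhg12 it was 1.00 (0.765 to 1.31).

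Genes on a list of reads carried over from RNA without a regular poly(A) tail also differed between the clones. Rn7sk, the RNA that holds back the elongation factor P-TEFb, had 58 counts in clone 1 and 163 in clone 2, against 68 in the control. Gm42418, a predicted gene whose reads are often ribosomal RNA, had 5500 counts in clone 1 and 15660 in clone 2, against 18310 in the control. Both were lower in clone 1 than in clone 2. Malat1, Gas5 and Snhg3 were too, at smaller ratios of 1.30, 1.16 and 1.93, and Snhg1 was not. For Neat1, Snhg8 and Snhg12 the clones lay within counting error of each other. Rn7sk and Gm42418 had the largest clone ratios of the list, 2.84 and 2.87. Lars2, Gm26917 and mt-Rnr1 had ratios between 1.04 and 1.17, and mt-Rnr2 ran the other way with 0.929 (0.890 to 0.971). All 6 tested genes of this list had a clone ratio whose interval left out 1, and 1 of them was called higher in the clones (Lars2, log2 fold change 0.85, a mitochondrial tRNA synthetase gene) and 2 lower (Gm26917, -0.32, and mt-Rnr2, -0.15). The part of carried-over RNA in the difference between clones was not tested.

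Other noncoding snoRNA hosts were described in the same way. Of 10 tested genes of that list 3 were called higher and 1 lower, a smaller share than the 50.1% over all tested genes, with a median log2 fold change of 0.26, against 0.002 over all tested genes. With DESeq2, 0 of the 10 were called. Snhg5, host of Snord50 snoRNAs, had 52.6 and 53.3 CPM in the clones, against 38.7 CPM in the control (log2 fold change 0.45 ± 0.09, SE; edgeR adjusted p = 0.000394). Snhg14, the long host next to the imprinted Snrpn gene, had 24.8 and 26.2 CPM in the clones, against 16.4 CPM in the control. Snhg17 was not called, with 217 and 211 counts in the clones against 189 counts in the control. Snhg4 was higher at 5.34 and 5.75 CPM, against 3.16 CPM in the control. Snhg6 was the gene called lower, with 26.2 and 25.5 CPM in the clones, against 37.4 CPM in the control. Of the 10 genes, 0 had a clone ratio whose counting interval left out 1, against 11.5% of all tested genes.

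**Figure D3:**
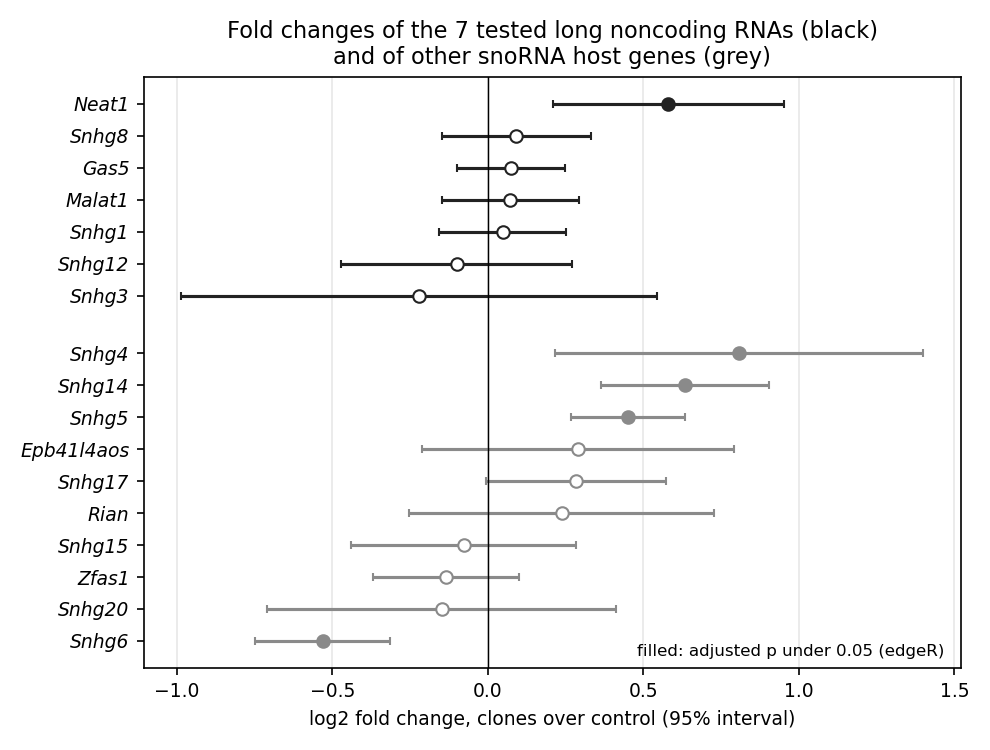
Log2 fold change of the clones over the control with its 95% interval for the 7 tested genes (black) and for 10 other noncoding snoRNA hosts (grey), with filled points for an edgeR adjusted p under 0.05. Neat1 at 0.58 is the filled black point, and the other 6 intervals cross 0.

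Other nuclear and well known long noncoding RNAs moved in both directions, with 5 of 13 called higher and 3 lower. That is 61.5%, against 50.1% over all tested genes, and the median log2 fold change was 0.06. Xist, which coats the inactive X chromosome, had 912 and 925 CPM in the clones, against 692 CPM in the control. Firre, a nuclear RNA that anchors the inactive X, had 25.6 and 23.1 CPM in the clones, against 10.7 CPM in the control. The genes called lower were Pvt1, the neighbour of Myc, with 8.82 and 8.27 CPM in the clones against 23.0 CPM in the control, the imprinted Peg13 with 30.5 and 28.5 CPM against 54.4 CPM, and Mir9-3hg, the host of a neuronal microRNA, with 1 and 0 counts in the clones against 91 counts in the control.

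The next lists hold the proteins of the bodies in which these RNAs gather. Of 24 tested paraspeckle proteins 11 were called higher and 2 lower, or 54.2% against 50.1% over all tested genes, with a median log2 fold change of 0.20. Nono and Sfpq, the core pair that binds Neat1, were not called: Nono had 601 and 586 CPM in the clones, against 556 CPM in the control, and Sfpq had 245 and 278 CPM, against 269 CPM in the control. Pspc1, their partner, was not called either, with 9.17 and 10.9 CPM in the clones against 12.8 CPM in the control. Hnrnpul1 had the largest value, 0.91 ± 0.06 (SE; edgeR adjusted p = 2.41e-09), and Ewsr1, Dazap1 and Hnrnpm were higher by 0.43, 0.38 and 0.37. The genes called lower were Nudt21, a subunit of the cleavage factor that sets where Neat1 is polyadenylated, at -0.40, and Hnrnpa1 at -0.15. Cpsf6, another subunit of that factor, was called higher at 0.25. Beside Malat1, 14 of 26 nuclear speckle proteins were called higher and 2 lower, or 61.5%, with a median of 0.20. Thrap3 at 0.61 and Srrm2, a scaffold of speckles, at 0.53 were among the higher genes, with Ddx39b and Acin1, while Scaf11 at -0.26 and Luc7l3 at -0.19 were the lower ones.

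Partners of the hosts were compared in the same way. Over all tested genes 50.1% were called, 24.3% higher and 25.8% lower. Of 19 snoRNP proteins and assembly factors 8 were called higher and 1 lower, or 47.4%, with a median log2 fold change of 0.21. The methyltransferase gene Fbl had 136 and 155 CPM in the clones, against 88.5 CPM in the control, or higher by 0.71 ± 0.08 on the log2 scale (SE; edgeR adjusted p = 1.26e-06). Ruvbl2, an assembly factor, was higher by 1.06, Nop56 by 0.48 and the pseudouridine synthase gene Dkc1 by 0.46, while Snu13, which binds the box C/D fold, was lower at -0.24. Of 16 nonsense-mediated decay factors 9 were called higher and 2 lower, or 68.8%, with a median of 0.27. Smg1, Upf2 and Smg5 were among the higher ones at 0.54, 0.54 and 0.50, and the lower ones were Upf3b at -0.75 and Nbas at -0.73. Of 29 protein-coding snoRNA hosts 20 were called higher and 1 lower, or 72.4%, with a median of 0.19. Hspa9 at 0.80, Rps3 at 0.66 and Rpl17 at 0.61 were higher, and Cct6a was lower at -0.15.

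**Figure D4:**
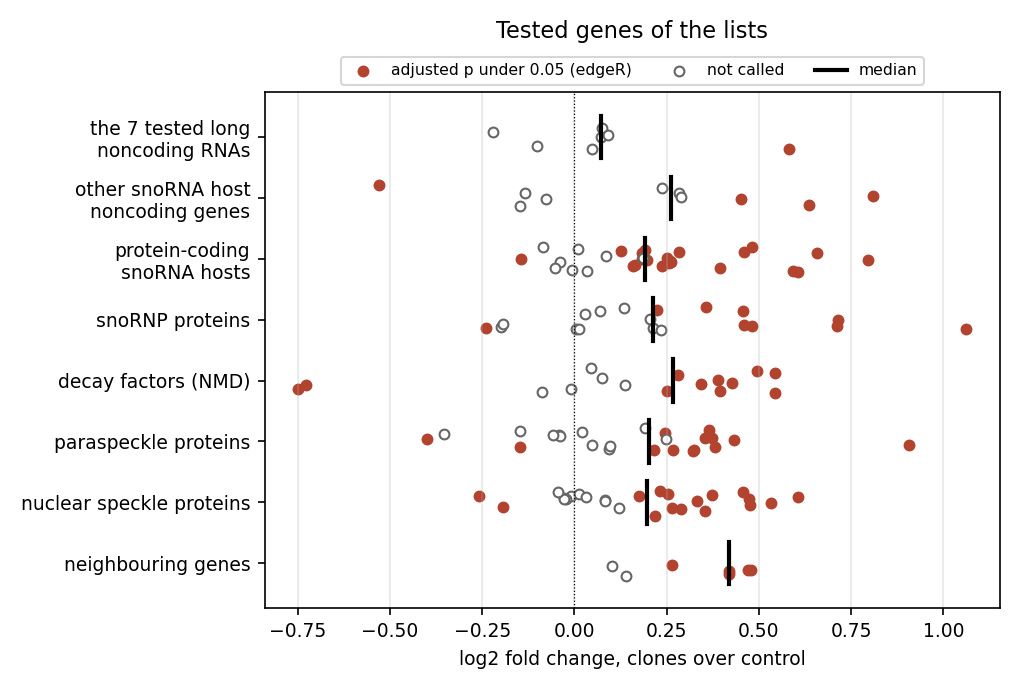
Log2 fold change of the clones over the control for each tested gene of 8 lists, filled where the edgeR adjusted p was under 0.05, with a line at each list's median. The median was 0.07 for the long noncoding RNAs described here and between 0.19 and 0.42 for the other 7 lists drawn. The list of other nuclear and well known long noncoding RNAs, with a median of 0.06, and the list of carried-over RNA, with -0.04, are not drawn.

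The genes beside these RNAs were taken from a list of neighbours. Of 7 tested protein-coding neighbours 5 were called higher and 0 lower, with a median log2 fold change of 0.42. That is 71.4%, against 50.1% over all tested genes. Slc3a2, the amino acid transporter heavy chain gene beside Snhg1, had 587 and 642 CPM in the clones, against 441 CPM in the control. Zbtb37, whose span overlaps that of Gas5 on the opposite strand without a shared exonic base, was higher by 0.47. Trnau1ap, beside Snhg12, was higher by 0.42, and Frmd8, near Neat1, by 0.27. Within 500 kb of Neat1, 14 of 52 tested genes were called higher and 4 lower, or 34.6%, against 52.3% of the tested genes of chromosome 19, with a median of 0.13 in the window and -0.03 on the chromosome. The windows of other genes varied. That of Snhg1 had 12 of 24 called higher and 6 lower, or 75.0%, against 52.5% on chromosome 19. For Gas5 it was 2 of 8 higher and 3 lower with a median of -0.14, or 62.5%, against 50.2% on chromosome 1. Snhg3 and Snhg12 lie near each other on chromosome 4, so their windows overlap and are not separate observations. Both had 5 higher and 5 lower, of 30 and 29 tested genes, or 33.3% and 34.5%, against 47.3% on chromosome 4.

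The 3 genes with a pattern most like that of Neat1 over both clones were Smad2, Phlda3 and Ptpn23, at distances of 0.00505, 0.00843 and 0.0101 log2 units among 10491 genes that averaged at least 5 CPM. Smad2 had 71.6 and 72.5 CPM in the clones, against 48.3 CPM in the control. A pattern over 2 clones is common, and 371 genes lay within 0.1 of Neat1.

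In the authors' deposited table none of the 8 genes had an adjusted p under 0.05, where 19.8% of the 13906 genes with a value did. Neat1 stood there with a log2 fold change of 0.57, a standard error of 0.388 and an adjusted p of 0.362, and in the authors' deposited table Miat had no adjusted p.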

How the data were processed

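Per the labels' protocols, the 3 libraries were prepared from polyadenylated RNA by a strand-preserving method. The raw counts are whole reads per gene made by the authors with STAR 2.5 and its gene counting option on GRCm38/mm10 and Gencode M16, per the file headers. The deposited RPM columns hold the counts scaled by the authors to mapped reads and were not used for tests. Per the file headers, the authors' deposited table came from DESeq2. Its columns, as deposited by the authors, are the fold ratio, the log2 fold change and its error, and the raw and adjusted p-value. The submitters' processing notes name STAR 2.5.3. The sources used here do not state the counted strand.

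The groups came from the labels. Genes with low counts were removed with filterByExpr, which left 13705 genes. Differences were tested, two-sided, by the quasi-likelihood F test of edgeR with the legacy option off, TMM factors and Benjamini-Hochberg adjustment over all tested genes at 0.05, using edgeR 4.0.16 (R 4.3.3); alternatives used DESeq2 1.42.0 and limma 3.58.1. As the control has no replicate, the clones alone give the spread, with 1 residual degree of freedom moderated over genes. The SE printed with an edgeR value was worked back from the test, as the absolute log2 fold change over the square root of F. The 95% intervals of fold changes were built from that SE. An exact permutation of 2 against 1 libraries cannot go below p = 0.333. The scripts were tested on simulated data. Clone ratios have exact conditional binomial 95% intervals, which like floors of 3 counts cover counting error only, because PCR copies cannot be told from separate molecules.

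The genes described and the 14 lists beside them were chosen with earlier results of these data known, and no list was tested as a set. The genes named are all 8 long noncoding RNAs, up to 4 genes per list by lowest edgeR p among those averaging at least 5 CPM, those called against a list's majority where 3 or fewer, the 3 most like Neat1 and genes overlapping the 8. Snhg4, Rn7sk, mt-Rnr1, Chat, Mnx1, Slc18a3, Frmd8, Rcc1, Nono, Sfpq, Pspc1 and Cpsf6 were named beyond that rule after their values were seen. Cell type markers are given as sums, and some genes that the rule selects are left out of the text. Positions and transcripts came from Gencode M21, and start windows from RefSeq.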

Additional observations from a re-analysis of the deposited data

How the results depend on the processing

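Counts of genes called higher and lower over the whole table were 3332 and 3533 with the main test and 1578 and 1459 with DESeq2, 1436 and 2181 with a preset variation of 10%, and 156 and 992 with one of 20%. Without a low count filter they were 0 and 4, and 0 and 0 together with the legacy fit, an alternative chosen after seeing the data, while at an unadjusted p under 0.05 edgeR gave 3670 and 3416 genes without the filter and 3289 and 3271 with the legacy fit as well. Neat1 was the 1 gene of the 8 called with the main test, limma-voom, RLE size factors, a mean CPM of at least 1 and the legacy fit, and 0 of the 8 were called under DESeq2, both fits without the filter and both preset variations. At an unadjusted p under 0.05, 0 of the 8 passed with DESeq2 and the preset 20%, and 1 with each of the others. Its log2 fold change stayed between 0.57 and 0.59, and its adjusted p was 0.294 with DESeq2, 0.0859 and 0.0895 without the filter, and 0.0576 and 0.518 with preset variations of 10% and 20%. The cause was not tested. Calls on the lists were lost too: other noncoding snoRNA hosts had 0 with DESeq2, and paraspeckle proteins called higher numbered 7 with DESeq2 and 1 with a preset variation of 10%. Without the filter 0 genes were called on any of the 14 lists. The other 6 tested genes were not called under any alternative run. With either clone left out, the log2 fold change ran from -0.13 to 0.25 for Malat1, 0.57 to 0.59 for Neat1, -0.04 to 0.18 for Gas5, -0.07 to 0.15 for Snhg1, -0.77 to 0.18 for Snhg3, 0.01 to 0.17 for Snhg8 and was -0.10 for Snhg12, so the sign for Malat1, Gas5, Snhg1 and Snhg3 rests on which clone is kept. Counts of calls have no value then, since no residual degree of freedom is left. No paired analysis was possible because there is 1 control library.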

Other observations

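Long noncoding genes as a class had a smaller share of calls than the whole table. Of 683 tested genes of a long noncoding type in Gencode M21, 53 were called higher in the clones and 128 lower, which is 26.5%, with a median log2 fold change of -0.15. The level of the genes was not matched in this comparison.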
